A study of Mus musculus with 6 samples.

Results

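Blood vessels and white blood cells carry microRNAs of their own, and 10 strands from 8 such hairpins were followed in mouse oviducts and in primary tumors. Among 1915 mouse names in the table they are the endothelial strands mmu-miR-126a-5p and mmu-miR-126a-3p and the leukocyte strands mmu-miR-142a-3p, mmu-miR-142a-5p, mmu-miR-146a-5p, mmu-miR-146b-5p, mmu-miR-150-5p, mmu-miR-155-5p, mmu-miR-223-3p and mmu-miR-342-3p, written without the species prefix from here on. All 10 had counts in all 6 libraries and passed the low-count filter, which kept 227 names. The members were chosen by name, with earlier results of these libraries known.

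The 3 oviducts were labelled Dicer1+/D1693N, that is, 1 normal allele beside the D1693N allele. The 3 tumors, whose tissue was also labelled oviduct and which carry the tag ADT, were labelled Dicer1ko/D1693N, a knocked-out allele beside D1693N. Every sample thus carried D1693N, none was treated, and no wild-type tissue was measured. The sources used here give neither the age or strain of the mice, nor the cells in which the allele was knocked out, nor whether each sample was taken from its own mouse. The p-values therefore reflect only how far the 6 samples scatter, and that scatter may be technical. Dicer cuts both strands, 5p and 3p, out of a hairpin, and D1693N changes the part of the enzyme that frees the 5p side. Tumor state, Dicer1 genotype and the s0 or s1 mark of the column headers differ between the groups all at once and cannot be told apart.

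Libraries held 297039 to 580390 mouse microRNA counts in the oviducts and 154002 to 272167 in the tumors. Levels are given as CPM, read counts scaled to a common library size with edgeR's TMM factors, and a floor of 3 counts stood at 5.48 to 15.1 CPM. The summed microRNAs of multiciliated cells, which line the oviduct, were at 14867 to 21618 CPM in the oviducts and at 422 to 1214 CPM in the tumors. In the oviducts most of it was miR-34c-5p (12879 to 20043.5 CPM), which was at 715, 47.2 and 65.9 CPM in tumors 1, 2 and 3. The other strand, miR-34c-3p, was at 301 to 423 CPM in the oviducts and 136 to 270 CPM in the tumors. Its change was not called (log2 -0.96, SE 0.41, edgeR adjusted p = 0.0705), so this sum does not stand for all its members. Strands of the smooth muscle list summed to between 490745 and 558467 CPM in the oviducts, and to 836236, 210793 and 94687 CPM in tumors 1, 2 and 3, nearly all of it miR-143-3p (835012 of the 836236 CPM in tumor 1). Another strand of that list, miR-145a-5p, was at 2613 to 3269 CPM in the oviducts and at 50.4, 167 and 96.7 CPM in tumors 1, 2 and 3, so the sum does not stand for all its members. Of the tested strands, 3 of 5 multiciliated, 2 of 6 epithelial and 2 of 5 smooth muscle ones were called lower and 0 higher (edgeR), beside 25.6% of all tested microRNAs called lower. In bulk tissue, fewer cells of a type and less of its RNA per cell cannot be told apart.

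MiR-126a lies within Egfl7, a gene of endothelial cells, and its 3p strand supports signalling by vascular growth factors by repressing Spred1 and Pik3r2. MiR-142 is made in nearly all blood-forming lineages. MiR-223 is known from neutrophils and other myeloid cells, miR-150 from mature lymphocytes, where it represses Myb, and miR-155 from activated lymphocytes and macrophages. MiR-146a and miR-146b are induced by inflammatory signalling and dampen it through Traf6 and Irak1, and miR-342 is encoded within Evl and is found in several blood lineages.

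The mature sequences of 8 of the 10 members were found in RefSeq (GRCm38.p6). They are shown because a read is assigned to a name by these letters, and because the seed (bases 2 to 8 from the 5′ end, in capitals) sets which messenger RNAs a strand can pair with.
miR-126a-3p: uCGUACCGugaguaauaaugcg
miR-142a-5p: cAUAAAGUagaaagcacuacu
miR-142a-3p: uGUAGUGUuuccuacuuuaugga
miR-146a-5p: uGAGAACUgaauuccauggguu
miR-146b-5p: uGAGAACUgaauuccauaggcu
miR-155-5p: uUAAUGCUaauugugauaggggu
miR-223-3p: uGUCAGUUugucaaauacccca
miR-342-3p: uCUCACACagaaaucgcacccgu
MiR-146a-5p and miR-146b-5p share a seed and differ at G18A and U21C (the base of miR-146a-5p, its position from the 5′ end, the base of miR-146b-5p). The seeds of the other 6 occurred in 0 further names among the 1623 of the 1915 mouse names that were matched to a sequence.

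The hairpins lie on 7 chromosomes. On GRCm38, with GENCODE M21 annotation, miR-126a is at chr2:26591357-26591429 on the plus strand in an exon of Egfl7, miR-142a at chr11:87756864-87756927 in an intron of Mir142hg, and miR-146a at chr11:43374397-43374461, overlapping no other annotated gene. MiR-146b is at chr19:46342762-46342870 in an intron of Mfsd13a, miR-150 at chr7:45121757-45121821 outside other genes, miR-155 at chr16:84714140-84714204 in an exon of Mir155hg, miR-223 at chrX:96242817-96242926 and miR-342 at chr12:108658620-108658718 in an intron of Evl. Exon here means an exon of any annotated transcript of the gene, so a hairpin can be intronic in its other transcripts.

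The comparison asked whether vessel and leukocyte microRNAs stood at other levels in the tumors than in the oviducts. Both strands of the endothelial hairpin miR-126a rose, and no tumor lay within the range of the oviducts. Of the 8 leukocyte strands 0 were called (edgeR, adjusted p under 0.05), although 2 (miR-146a-5p and miR-155-5p) had an unadjusted p under 0.05 and DESeq2 called 1 (miR-146a-5p). The leukocyte strands differed chiefly among the tumors: tumor 2 held more of all 8 than tumor 1, and more than any oviduct. In all, 2 of the 10 members were called, where 52.4% of the 227 tested microRNAs were (26.9% higher and 25.6% lower in the tumors). In CPM, the 3 tumors all lay above the 3 oviducts for 3 members (both miR-126a strands and miR-155-5p) and below them for 0. Of all tested microRNAs, 60.4% had no such overlap (30.0% with the tumors higher and 30.4% lower).

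**Figure D1:**
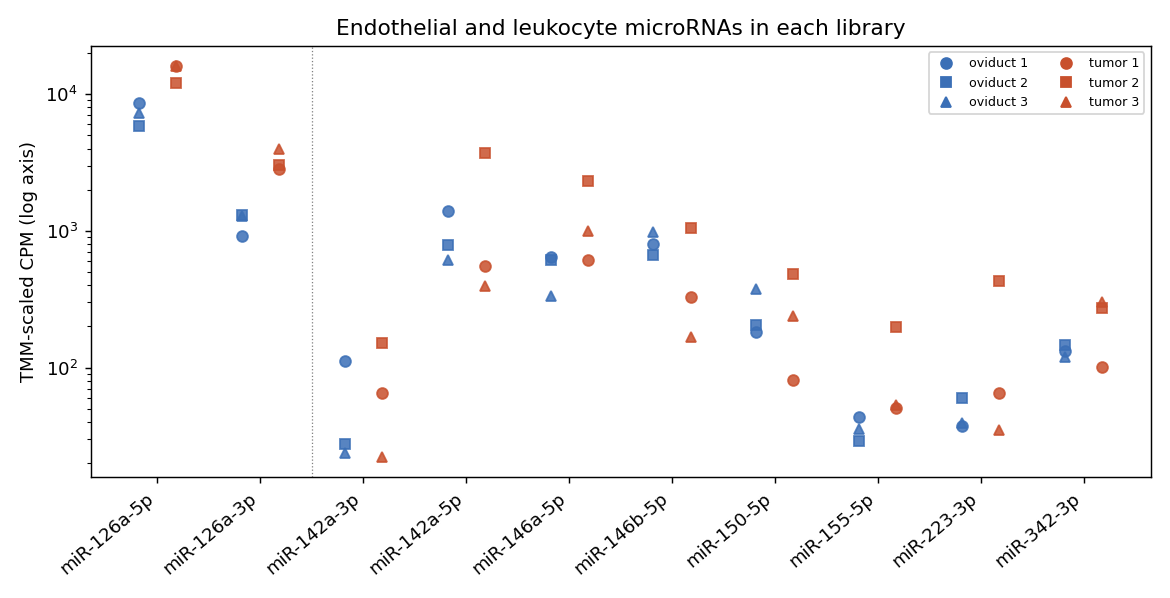
TMM-scaled CPM of the 10 members on a log axis, 1 point per library, oviducts in blue and tumors in orange, with the endothelial strands left of the dotted line. Each miR-126a strand is higher in all 3 tumors than in any oviduct, whereas the leukocyte strands spread widely, with tumor 2 (square) highest of all 6 libraries for 7 of the 8.

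The 5p strand of miR-126a was the most abundant member. It was read at 8628, 5836 and 7234 CPM in oviducts 1, 2 and 3 and at 16134, 12172 and 16200 CPM in tumors 1, 2 and 3. The lowest tumor thus stood above the highest oviduct. Means were 7233 ± 1396 and 14835 ± 2307 CPM (SD, n = 3 each), a 2.05-fold rise (log2 1.04, SE 0.28, edgeR adjusted p = 0.0110). Within its library it ranked 13th, 18th and 17th among mouse names in the oviducts and 9th, 10th and 9th in the tumors.

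The 3p strand of miR-126a, the one that represses Spred1 and Pik3r2, was less abundant. It stood at 920, 1311 and 1285 CPM in the oviducts and at 2815, 3027 and 3996 CPM in the tumors, again with no overlap. Means were 1172 ± 219 and 3279 ± 630 CPM (SD, n = 3 each), a 2.80-fold rise (log2 1.48, SE 0.33, edgeR adjusted p = 0.00406). With the counts of each hairpin's strands summed and the test run over 183 hairpins, miR-126a was at 9088, 6760 and 8469 CPM in the oviducts and 20801, 15274 and 20261 CPM in the tumors (log2 1.21, SE 0.25, edgeR adjusted p = 0.00581). It was the 1 member hairpin called among 8, where 39.9% of all hairpins were called, 22.4% higher and 17.5% lower.

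These calls depended on the scaling. With library totals alone the median log2 change of all 227 microRNAs moved from 0.20 to 0.65, and with TMM factors from 3p names alone it moved to -0.73. In the latter scaling the log2 changes of miR-126a-5p and miR-126a-3p were 0.14 and 0.59 and neither was called. The call of the summed hairpin was lost there too (log2 0.21). Relative to the median of all microRNAs, the members' own median was 0.90 against 0.20 with TMM, 1.38 against 0.65 with library totals and 0.030 against -0.73 with TMM on 3p names. With no low-count filter the members' median was below that of all microRNAs, at 0.63 against 0.82. Without tumor 2 the medians were 0.36 and 0.17, or 0.31 and 0.10 with the filter and factors of all 6 libraries kept.

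The low-count filter also mattered. The 5p call was lost with no filter (log2 0.75) and where a mean of 10 CPM was required (log2 0.72), and the summed hairpin's call with no filter (log2 0.77) and without oviduct 2 (log2 0.94) or oviduct 3 (log2 1.01). With the filter and factors of all 6 libraries kept, an alternative chosen after seeing the data, miR-126a-3p was called in all 6 such fits, with log2 changes of 1.32 to 1.58, and miR-126a-5p in all but the fit without oviduct 2 (log2 0.90). With filter and factors computed anew, which let 241 to 262 microRNAs pass in place of 227, the 5p call was lost without oviduct 1, 2 or 3 or tumor 1 (log2 0.71 to 0.87), and the 3p call without oviduct 1 (log2 1.04) or oviduct 3 (log2 1.25). Some leukocyte strands were called higher in other settings. MiR-146a-5p was called with RLE factors, upper-quartile factors, library totals alone, DESeq2, thinned counts and without tumor 1. It was not called with TMM factors from 3p names, nor with those from all names on the unthinned counts of all 6 libraries. MiR-155-5p and miR-223-3p were called with library totals alone, and miR-223-3p also with no low-count filter and without tumor 3. With the filter and factors kept, miR-146a-5p, miR-155-5p and miR-223-3p were called without tumor 3, and these and miR-342-3p without tumor 1.

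**Figure D2:**
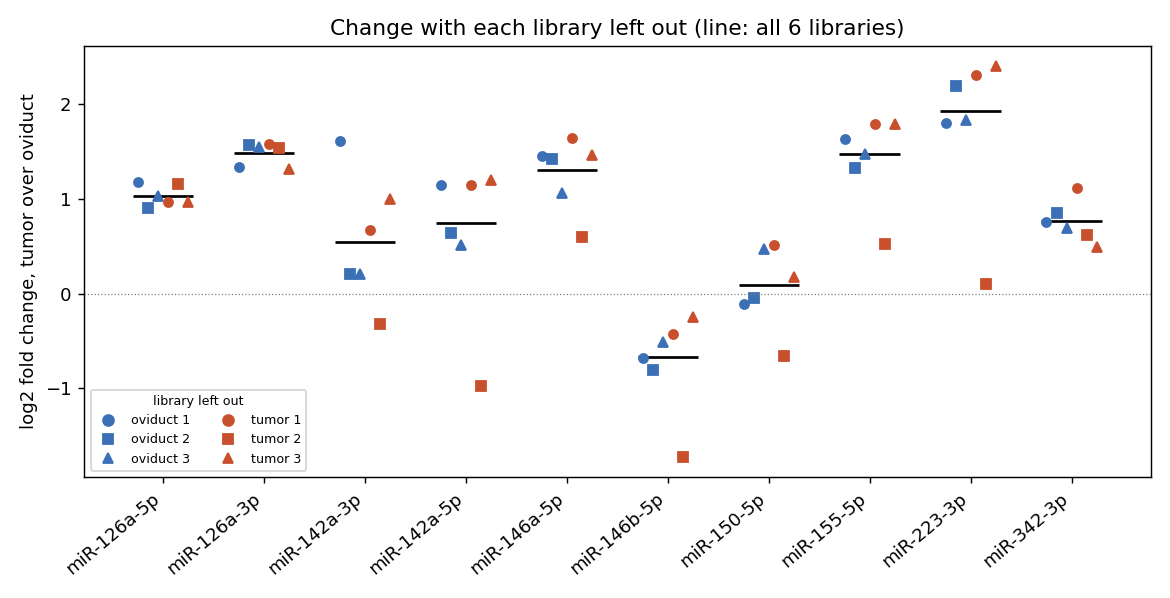
Log2 fold change (tumor over oviduct) of each member with all 6 libraries (black line) and with 1 library left out (points, shape and colour naming that library), holding the filter and factors of all 6. The miR-126a points stay between 0.90 and 1.58, while leaving out tumor 2 (orange square) lowers every leukocyte strand and takes miR-142a-5p from 0.74 to -0.98.

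MiR-142a, the hairpin shared by nearly all blood lineages, gave 18.9% to 45.0% of the counts of the 8 leukocyte strands. Its 5p strand was at 1391, 792 and 617 CPM in the oviducts and at 554, 3735 and 396 CPM in the tumors. In CPM, tumors 1 and 3 thus lay below every oviduct and tumor 2 far above the highest one. As a share of all counts, tumor 3 (0.0584%) lay above oviduct 3 (0.0525%). The group means, 933 ± 406 and 1562 ± 1884 CPM (SD, n = 3 each), differed by less than the spread of the tumors (log2 0.74, SE 0.77, edgeR adjusted p = 0.437). Without tumor 2 the log2 change was -0.98 with the filter and factors kept and -0.94 with them computed anew, not called in either. The rarer 3p strand, at 36, 15 and 6 counts in the oviducts, against 13, 35 and 5 in the tumors, was at 112, 27.4 and 23.7 and at 65.5, 150 and 22.0 CPM (log2 0.55, SE 0.80, edgeR adjusted p = 0.572).

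MiR-223-3p, the myeloid strand, was rare outside tumor 2. Its counts were 12, 33 and 10 in the oviducts, against 13, 100 and 8 in the tumors, or 37.4, 60.2 and 39.5 CPM and 65.5, 429 and 35.2 CPM. Tumor 2 stood 12.2 times above tumor 3, the widest gap between tumors of any member. The log2 change of 1.93 (SE 0.88) was the largest of the 10 yet was not called (edgeR adjusted p = 0.0909), and it was 0.10 without tumor 2 with the filter and factors kept.

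The lymphocyte strand miR-150-5p was at 181, 204 and 376 CPM in the oviducts and at 80.6, 485 and 237 CPM in the tumors. Tumor 2 was again the highest and tumor 1 the lowest of all 6 libraries. Its group means lay closest of all members, 254 ± 106 and 268 ± 204 CPM (SD, n = 3 each; log2 0.088, SE 0.61, edgeR adjusted p = 0.920). Per count of miR-223-3p there were 4.83, 3.39 and 9.50 counts of miR-150-5p in the oviducts, against 1.23, 1.13 and 6.75 in the tumors, a ratio that needs no scaling between libraries. Tumors 1 and 2 lay below every oviduct in this ratio and tumor 3 within their range, which is a description of few counts and was not tested.

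MiR-155-5p, the strand of activated lymphocytes and macrophages, was the rarest 5p member, with 9 to 16 counts in the oviducts, against 10, 46 and 12 in the tumors. It was at 43.7, 29.2 and 35.6 CPM in the oviducts and at 50.4, 197 and 52.8 CPM in the tumors. In CPM all 3 tumors exceeded all oviducts, tumors 1 and 3 only narrowly. As a share of all counts, tumor 1 (0.00367%) lay below oviduct 1 (0.00373%). The difference between the groups was not called (log2 1.48, SE 0.63, edgeR adjusted p = 0.0693). Its log2 size was 0.52 without tumor 2 with the filter and factors kept.

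MiR-342-3p departed from the pattern of the other leukocyte strands, being highest in tumor 3. MiR-342-3p was at 131, 146.03 and 119 CPM in the oviducts and at 101, 270 and 303 CPM in the tumors. Tumors 2 and 3 were above every oviduct and tumor 1 was below them (log2 0.77, SE 0.51, edgeR adjusted p = 0.225).

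MiR-146a-5p and miR-146b-5p, which share a seed and part of their known targets, differed in how the groups were ordered. MiR-146a-5p was at 639, 615 and 336 CPM in the oviducts and at 614, 2318 and 998 CPM in the tumors, where only tumor 1 lay within the oviduct range (log2 1.30, SE 0.50, edgeR adjusted p = 0.0536). MiR-146b-5p was at 804, 663 and 988 CPM in the oviducts and at 327, 1048 and 167 CPM in the tumors, so that tumors 1 and 3 lay far below every oviduct (log2 -0.67, SE 0.58, edgeR adjusted p = 0.353). Without tumor 2, miR-146b-5p was called lower, with a log2 change of -1.73 (SE 0.41) with the filter and factors kept and -1.70 with them computed anew. Per count of miR-146b-5p there were 0.795, 0.928 and 0.340 counts of miR-146a-5p in the oviducts, against 1.88, 2.21 and 5.97 in the tumors. In this ratio, which needs no scaling, the more abundant of the pair was miR-146b-5p in each oviduct and miR-146a-5p in each tumor. The pair was singled out after its values were seen, so no test is given, and how reads that fit either name were assigned is not given in the sources used here.

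A look-alike name followed miR-142a-5p. The sequence of miR-3969 (chr5:87595963-87595982, minus strand, GRCm38.p6) is shown for comparison with that of miR-142a-5p above, with bases 2 to 8 in capitals.
miR-3969: cCCUAAAGuagaaaucacua
Laid beside miR-142a-5p over 19 bases, shifted by 1 base, it differs at 2 positions, A2C and G14U (the base of miR-142a-5p, its position from the 5′ end, the base of miR-3969). It had 35, 31 and 10 counts in the oviducts, against 7, 48 and 4 in the tumors. Per 100 counts of miR-142a-5p these were 7.85, 7.14 and 6.41 in the oviducts, against 6.36, 5.52 and 4.44 in the tumors, although the 2 hairpins lie on different chromosomes. Of all tested microRNAs outside its own hairpin, miR-3969 had the pattern nearest to miR-142a-5p, with a root mean square difference of 0.20 log2 units over the 6 libraries after centring each name. The next nearest, miR-223-3p, was at 0.67. Whether reads of miR-142a-5p were counted as miR-3969 was not tested.

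**Figure D3:**
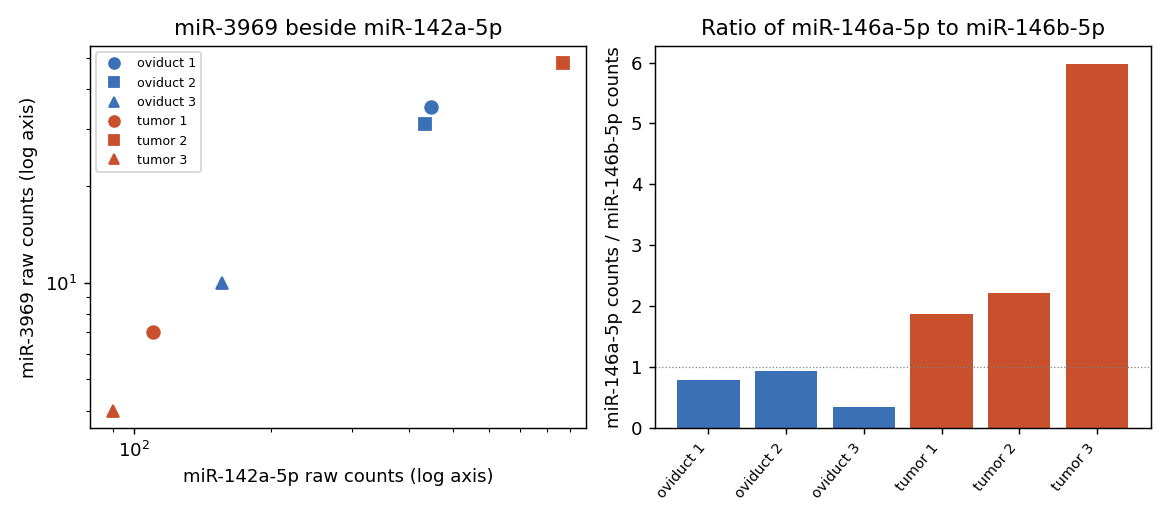
Left, raw counts of miR-3969 against those of miR-142a-5p in each library on log axes, which rise together from tumor 3 (4 and 90 counts) to tumor 2 (48 and 870 counts). Right, the count of miR-146a-5p divided by that of miR-146b-5p in each library, which is under 1 in the 3 oviducts and over 1 in the 3 tumors (dotted line at 1).

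Dicer1 differed between the groups, so the members were also read by strand. Among all tested 5p strands the median log2 change was -1.04, with 48.4% of 95 called lower and 2.11% called higher. Of the 6 members that are 5p strands, 0 were called lower, 1 (miR-126a-5p) was called higher, and their median was 0.89. Their changes ranked 3rd (miR-155-5p), 4th (miR-146a-5p), 5th (miR-126a-5p), 7th (miR-142a-5p), 20th (miR-150-5p) and 34th (miR-146b-5p) from the highest of the 95. Among the 110 tested 3p strands the median was 0.89, with 41.8% called higher, and the 4 members that are 3p strands had a median of 1.13 and ranked between 36th and 64th. All 6 of the 5p members thus lay above the median of their arm, and 2 of the 4 on the 3p side did. Of the 3p strands, 10% were called lower, none of them a member; these counts are a description without a test.

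**Figure D4:**
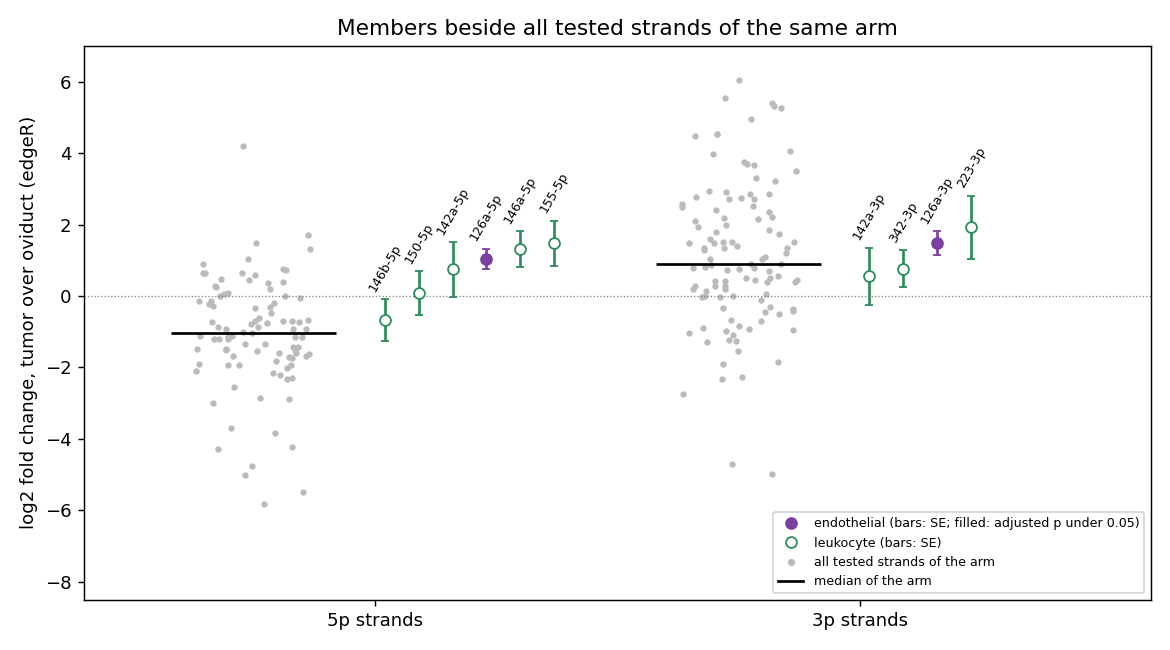
Log2 fold change (tumor over oviduct) of the members with their SE, endothelial in purple and leukocyte in green, filled where the adjusted p was under 0.05, beside all tested strands of the same arm (grey, members included) and their median (black line). The 5p members lie between -0.67 and 1.48 where the median 5p strand is at -1.04, and the 3p members lie between 0.55 and 1.93 around a median of 0.89.

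Within the miR-126a and miR-142a hairpins no change in the balance of the strands was called, although the 3p strand of miR-142a rests on the 5 to 36 counts per library given above. For miR-126a the 5p strand took 90.4%, 81.7% and 84.9% of the hairpin's counts in the oviducts, against 85.1%, 80.1% and 80.2% in the tumors. The mean share was 85.6% ± 4.40 and 81.8% ± 2.89 (SD, n = 3 each), and the log2 5p:3p ratio differed by -0.44 (SE 0.59, limma adjusted p = 0.567), and the shares of the groups overlapped. For miR-142a the 5p share was 92.5%, 96.7% and 96.3% in the oviducts, against 89.4%, 96.1% and 94.7% in the tumors (log2 ratio -0.44, SE 0.65, limma adjusted p = 0.620). Of all hairpins tested, 47.2% fell in this ratio and the median log2 change was -1.53.

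For the other hairpins 1 strand had at most 5 counts in any library. The 3p strands of miR-146a, miR-146b, miR-150 and miR-155 had 0, 1, 2 and 0 counts over the oviducts and 1, 2, 2 and 0 over the tumors, and the 5p strand of miR-342 had 4 and 6. The 5p:3p ratio of miR-146b was called lower (log2 -2.28, SE 0.68, limma adjusted p = 0.0172), but on 3 counts of the 3p strand in all, and the call was lost with a pseudocount of 0.1, in an edgeR interaction of arm and group, and without oviduct 1 or oviduct 3. MiR-223 was called lower too (log2 -2.11, SE 0.56, limma adjusted p = 0.0111). Its 5p strand had 2, 5 and 2 counts in the oviducts, against 0, 4 and 0 in the tumors beside the 3p counts given above, and this call was lost with a pseudocount of 5, in the interaction fit, and without tumor 2 or at a minimum mean total of 50, where the hairpin was no longer tested. These were 2 of the 7 member hairpins tested, where 51.4% of all hairpins were called in either direction. The names miR-126b and miR-142b, which lie opposite miR-126a and miR-142a on the other DNA strand, had 1 and 0 counts in all.

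Summed over its members, each list gave 1 value per library. The endothelial pair came to 9548, 7146 and 8519 CPM in the oviducts and to 18949, 15198 and 20196 CPM in the tumors, with means of 8404 ± 1205 and 18115 ± 2602 CPM (SD, n = 3 each) and the highest tumor 1.33 times the lowest. As shares of all counts the pair took 0.815%, 0.675% and 0.725% in the oviducts, against 1.38%, 2.00% and 2.98% in tumors 1, 2 and 3. The tumors were thus less even without their TMM factors (0.734, 1.33 and 1.49), though still above every oviduct. The 8 leukocyte strands came to 3340, 2537 and 2534 CPM in the oviducts and to 1858, 8634 and 2211 CPM in the tumors, where the highest tumor was 4.65 times the lowest and the means were 2804 ± 464 and 4234 ± 3814 CPM (SD, n = 3 each). The log2 ratio of these leukocyte means, 0.59, was -0.46 without tumor 2 and -0.24 with TMM on 3p names. Of the 369, 2011 and 503 leukocyte counts in tumors 1, 2 and 3, miR-146a-5p gave 122, 540 and 227. MiR-146b-5p, whose log2 change had the other sign, gave 65, 244 and 38, so the sum does not stand for all its members. As shares of all counts, without TMM factors, the leukocyte strands took 0.285% (exact Clopper-Pearson 95% interval 0.268 to 0.303), 0.239% (0.227 to 0.252) and 0.216% (0.199 to 0.233) in the oviducts. In the tumors these shares were 0.136% (0.122 to 0.150), 1.14% (1.09 to 1.19) and 0.327% (0.299 to 0.356). Tumor 2 stood highest and tumor 1 lowest on either scale, whereas tumor 3 lay below the oviducts in CPM and above them as a share.

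The number of leukocyte counts per 100 endothelial counts needs no scaling. It was 34.98, 35.5 and 29.7 in the oviducts and 9.81, 56.8 and 10.9 in tumors 1, 2 and 3. Tumors 1 and 3 thus had about the same value, under every oviduct, and tumor 2 was over every oviduct. As a list chosen with earlier results known, this ratio was given no test.

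Red-cell microRNAs, which are abundant in blood, were ordered otherwise over the tumors. Their sum, with the identical counts of miR-486a-5p and miR-486b-5p counted once, was 5659, 4490 and 4874 CPM in the oviducts and 11698, 1880 and 2541 CPM in tumors 1, 2 and 3. Tumor 1, the richest in red-cell microRNAs, was thus the poorest in leukocyte strands, and tumor 2 the reverse. Of 3 tested red-cell names 1, miR-451a, was called higher, where 26.9% of all tested microRNAs were (165, 137 and 158 CPM against 1088, 150 and 330 CPM, log2 1.76, SE 0.65, edgeR adjusted p = 0.0449). The other 2, miR-486a-5p and miR-486b-5p with their identical counts, were not called (log2 -0.012, SE 0.62, edgeR adjusted p = 0.985). The sum is mostly miR-486a-5p (10469, 1713 and 2194 CPM in the tumors), which was at 4335 to 5469 CPM in the oviducts. In tumors 2 and 3 miR-486a-5p thus lay below every oviduct, whereas miR-451a was above every oviduct in tumors 1 and 3 and within their range in tumor 2. The part of blood content in the miR-126a rise was not tested.

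**Figure D5:**
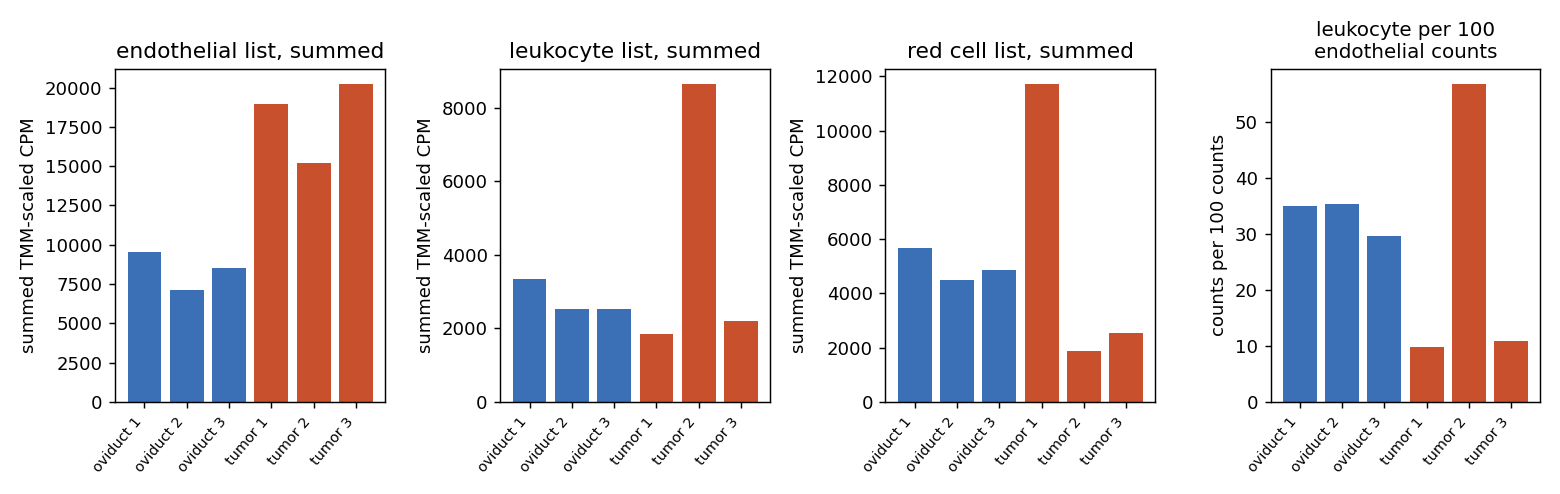
Summed TMM-scaled CPM of the endothelial, leukocyte and red-cell lists in each library, and leukocyte counts per 100 endothelial counts, with oviducts in blue and tumors in orange and all axes starting at 0. The endothelial sum is higher in all 3 tumors, the leukocyte sum is high in tumor 2 and the red-cell sum in tumor 1.

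The microRNAs whose pattern over the 6 libraries was nearest to miR-126a-3p were miR-148b-3p (root mean square difference 0.095 log2 units), miR-652-3p (0.30), miR-25-3p (0.31), miR-30c-2-3p (0.31) and miR-152-3p (0.31). Nearest to miR-142a-3p, whose low counts make its pattern less exact, were miR-3969 (0.56), miR-155-5p (0.72), miR-192-5p (0.73), miR-21a-5p (0.76) and miR-183-5p (0.82). Both lists leave out the other strand of the same hairpin, which was not compared.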

How the data were processed

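Small RNA libraries of 3 oviducts and 3 primary tumors were analysed; per the labels' protocols, RNA came from a miRNeasy kit and libraries from an Illumina TruSeq small RNA kit. The authors deposited raw counts per mature microRNA name, with no normalization. The submitters' processing notes name cutadapt, an adapter trimmer, and column names point to BAM alignments of trimmed reads, per the file headers. Not given in the sources used here are the aligner, counting program, microRNA reference, genome build and treatment of reads that match several names, so near-identical names may share reads.

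From these counts, 67 names of other species were left out. Single microRNAs were tested with edgeR 4.0.16 in R 4.3.3 (filterByExpr with a minimum count of 10, TMM factors, robust quasi-likelihood test, two-sided, Benjamini-Hochberg adjustment over all 227 tested, threshold 0.05). Strands of a hairpin were summed and tested alike, and log2 ratios of (5p count + 0.5) to (3p count + 0.5) were tested with limma 3.58.1 where a hairpin's mean total reached 20 counts. Alternatives were DESeq2 1.42.0, other scalings, filters and pseudocounts, thinning, a replicate block and leaving out each library. Tests were checked on simulated counts. No library repeated another of its group (chi-square per degree of freedom at least 24.4). Reads carry no molecular identifiers and can be PCR copies, so the exact Clopper-Pearson intervals and the floors cover counting error only.

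The members, marker lists and tests were chosen with earlier results of these data known. The named microRNAs were all 10 members, other strands of their hairpins, the listed markers, and the 5 nearest patterns of miR-126a-3p and miR-142a-3p; the pattern of miR-142a-5p and the ratios between members were added after values were seen. Sequences are from RefSeq (GRCm38.p6), and locations from GENCODE M21 (GRCm38). Figures used Python 3.11.15 and matplotlib 3.10.9.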

Additional observations from a re-analysis of the deposited data

How the results depend on the processing

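Each group had 3 libraries, and miR-142a-3p, miR-155-5p and miR-223-3p had 5 to 100 counts in each, which limits how small a difference could be called. The count of called members (2) was 5 under library totals only, 0 under TMM factors from 3p strands, and 1 where a mean of 10 CPM was required. It was 0 to 3 without 1 library, and 1 to 6 so with filter and factors kept. Called member hairpins with summed strands (1) were 4 under library totals only, 3 under upper-quartile factors, 2 under DESeq2, 2 after thinning, 0 under TMM from 3p strands, 0 unfiltered and 0 to 3 without 1 library. Called 5p:3p ratios (2) were 1 with a pseudocount of 0.1 or of 5, 1 at a mean total of 50 counts, 0 in the edgeR interaction and 1 to 2 without 1 library. The log2 ratio of summed endothelial means (1.11) was 1.53 under library totals only and 0.21 under TMM from 3p strands, and that of the leukocyte means (0.59) was -0.46 to 0.95 without 1 library, the lowest without tumor 2.

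Signs turned for miR-142a-3p (-0.31), miR-142a-5p (-0.084), miR-150-5p (-0.73) and miR-342-3p (-0.16) under TMM from 3p strands, and for miR-150-5p unfiltered (-0.21) and where a mean of 10 CPM was required (-0.21). Without 1 library miR-142a-3p lay between -0.30 and 1.24, miR-142a-5p between -0.94 and 1.02, and miR-150-5p between -0.58 and 0.22, and with filter and factors kept between -0.32 and 1.61, -0.98 and 1.20, and -0.66 and 0.52. With filter and factors kept, miR-150-5p was also -0.11 without oviduct 1 and -0.049 without oviduct 2. None of these values was called, and the cause was not tested.

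The replicate block, adding the sample number to the model, gave 108 called microRNAs against 119, the same count of 2 members, and a log2 change of -0.17 for miR-150-5p. Same-numbered samples did not deviate together (Pearson's r across microRNAs -0.045, 0.090 and -0.14), and differently numbered ones gave -0.14 to 0.15. With 3 samples per group, this cannot tell whether same-numbered samples share more than a number.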

Other observations

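Other microRNAs tied to vessels or immune cells were mostly too rare to test: of 12 listed names 2 passed the filter and 0 were called by edgeR, where 52.4% of all tested microRNAs were called and 26.9% were called higher. MiR-132-3p, which is induced by growth factor signalling in endothelial cells and neurons, was at 40.5, 84.0 and 134 CPM in the oviducts and at 217, 219 and 215 CPM in the tumors (log2 1.34, SE 0.53, edgeR adjusted p = 0.0548), so in CPM the 3 tumors were nearly equal and all above the oviducts. That near equality depends on the TMM factors: tumors 1, 2 and 3 had 43, 51 and 49 counts in libraries of 272167, 176615 and 154002. MiR-130a-3p was at 845, 528 and 383 CPM in the oviducts and at 977, 854 and 1794 CPM in the tumors (log2 1.04, SE 0.41, edgeR adjusted p = 0.0534). Both had an unadjusted p under 0.05.

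Among the untested names, miR-139-5p had 7, 5 and 7 counts in the oviducts, against 8, 20 and 17 in the smaller tumor libraries. MiR-147-3p, a strand induced in macrophages, had 0 counts in every oviduct and 0, 6 and 1 in tumors 1, 2 and 3, the 6 falling in the tumor that was highest in 7 of 8 leukocyte strands. Other names of the list went the other way. MiR-511-3p had 2, 5 and 1 counts in the oviducts, against 1, 1 and 0 in the tumors. For miR-511-5p these were 1, 2 and 0, against 0 in every tumor. MiR-296-3p had 1, 2 and 2 counts in the oviducts, against 31, 1 and 50 in the tumors, low in tumor 2 alone among them.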
